A study of Mus musculus with 2 samples.

Results

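The EGR, NR4A and IER early genes are 9 immediate-early genes named for this description: Egr1, Egr2, Egr3, Nr4a1, Nr4a2, Nr4a3, Ier2, Ier3 and Ier5. All 9 are among the 21911 protein-coding gene symbols of the annotation. They were chosen by name, as members of 3 families of early genes. Chromatin accessibility was measured by ATAC-seq, in which a transposase cuts and tags DNA that nucleosomes leave free, and peaks mark the places cut most often. There was 1 group, neutrophils of peripheral blood from adult mice of the strain C57BL/6J, 5 to 6 weeks old, with 2 replicates made from 50000 cells each. The labels name no genetic change, stimulus, sort or purification. Both replicates are numbered as biological and carry separate sample records under a single donor record. The spread between them may therefore be technical. With 1 group no comparison between conditions could be made, so each value is given per replicate and set beside the same value over all protein-coding genes.

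Immediate-early genes are switched on within minutes of a signal and need no new protein for it. The EGR proteins are zinc finger transcription factors whose genes are classic targets of serum response factor (SRF) and its ETS-domain partners at the CArG box. The NR4A proteins are orphan nuclear receptors, active without a known natural ligand, whose genes are classic targets of CREB at the cAMP response element. The IER proteins are a looser group of signal-induced regulators: Ier2 and Ier5 are related nuclear proteins, and Ier3 is a short protein that modulates apoptosis and NF-kB signalling. In myeloid cells these genes are known as early responders to adhesion, cytokines and bacterial products.

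The sequences below are those the promoter and distal results turn on, read from RefSeq promoter windows or the genome of build GRCm38.p6, 5′ to 3′. RefSeq windows, which run from 250 bases before to 50 bases after a start, were matched for 6 of the 9 genes, Egr2, Nr4a1, Nr4a2, Nr4a3, Ier3 and Ier5. Capitals in the first 4 mark TGACG, the core of the cAMP response element, on either strand (CGTCA on the printed one), and in Egr2 also the CArG box. Only a run of 30 bases is shown for Egr2, Nr4a2 and Nr4a3, because an exon annotated in RefSeq reaches into these windows. The capitals mark a kB box in Ier3. In Ier5 they mark CCAAT, here read on the other strand.
Egr2, internal promoter, chr10:67537793-67537822, plus strand: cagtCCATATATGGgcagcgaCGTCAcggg
Nr4a1, internal promoter, chr15:101266596-101266845, plus strand: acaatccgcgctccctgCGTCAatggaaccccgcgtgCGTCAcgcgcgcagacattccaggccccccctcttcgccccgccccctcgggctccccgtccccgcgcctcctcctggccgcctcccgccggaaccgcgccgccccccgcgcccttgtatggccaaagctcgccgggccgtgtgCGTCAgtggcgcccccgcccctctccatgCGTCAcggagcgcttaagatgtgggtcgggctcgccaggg
Nr4a2, upstream promoter, chr2:57124120-57124149, minus strand: cgCGTCAcggagcccggccgggcTGACGgg
Nr4a3, upstream promoter, chr4:48045071-48045100, plus strand: gggTGACGtagcgtcccatgtCGTCAcatt
Ier3, promoter, chr17:35821463-35821683, plus strand: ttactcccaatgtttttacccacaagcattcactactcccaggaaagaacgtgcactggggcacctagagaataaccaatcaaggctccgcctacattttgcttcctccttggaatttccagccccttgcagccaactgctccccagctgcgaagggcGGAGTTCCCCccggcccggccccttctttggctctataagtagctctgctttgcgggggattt
Ier5, promoter, chr1:155099637-155099886, minus strand: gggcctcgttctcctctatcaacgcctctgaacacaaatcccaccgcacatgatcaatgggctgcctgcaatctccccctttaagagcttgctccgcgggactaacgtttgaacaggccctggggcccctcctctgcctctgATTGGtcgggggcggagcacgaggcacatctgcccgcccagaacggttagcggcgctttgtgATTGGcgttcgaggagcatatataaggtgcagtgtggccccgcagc
The last 2 runs reach 50 bases to either side of the summits of strong distal peaks. Their capitals mark CCAAT and the Sp1 string GGGCGG for Nr4a1 and the AP-1 string TGANTCA for Ier5.
Nr4a1, distal region upstream of the gene, chr15:101246362-101246462, plus strand: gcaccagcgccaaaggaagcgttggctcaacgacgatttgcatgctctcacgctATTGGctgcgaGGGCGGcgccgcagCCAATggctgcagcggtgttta
Ier5, distal region downstream of the gene, chr1:155091445-155091545, plus strand: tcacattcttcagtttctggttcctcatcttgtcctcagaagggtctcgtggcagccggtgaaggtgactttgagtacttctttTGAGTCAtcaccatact

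A promoter was called open in a list when a peak region overlapped the 1 kb on either side of any annotated start site of the gene. For each replicate there is a strict list, cut by the irreproducible discovery rate (IDR, a measure of how well the ranks of peaks repeat), and a less strict pseudoreplicated list. A further list holds peaks passing IDR between the replicates. In the IDR lists of both replicates the promoters of 6 of the 9 genes were open (66.7%): Egr1, Egr2, Nr4a1, Nr4a3, Ier2 and Ier5. The same was true of 39.8% of all protein-coding genes. Egr3 and Ier3 were open in replicate 1 alone, and Nr4a2 in neither. By replicate, 8 of 9 were open in replicate 1, against 47.1% of genes, and 6 of 9 in replicate 2, against 40.3%.

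CpG-rich promoters, here those with CpG at 0.6 or more of its expected number and G or C at 0.5 or more of the bases, were open far more often than others in these cells. Both replicates had a peak at 66.8% of genes with such a promoter and at 18.2% of the rest. Of the 9 genes, 8 have a CpG-rich promoter and 5 of those 8 (62.5%) were open in both replicates, a share near that of all CpG-rich genes. Egr1, with CpG at 0.544 of its expected number around its first start, was the gene not classed as CpG-rich and was open. CpG was measured at the first start alone, whereas a promoter could be open at any start. In both IDR lists the strongest promoter peaks of Egr1, Egr2 and Nr4a1 lay nearer to another start of the gene. The less strict lists gave 8 of 9 open in both replicates, against 49.8% of genes. By the list passing IDR between replicates, 8 of 9 were open as well, against 46.7%. Nr4a2 was the gene without a promoter peak by each of these rules.

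Most of the promoter peaks of these genes had signal values below the median of open genes. The signal value is the authors' score of a peak and has no defined unit. Across the 8 genes with a peak in replicate 1 the highest promoter signal value had a median of 7.20, against 12.43 over all genes with a peak. In replicate 2 the median of 6 genes was 9.06, against 13.88 over all. By each gene's highest value, Ier5 was the strongest in both replicates and, in replicate 2, lay above the median of all genes with a peak. Ier3, in replicate 1, was the lowest. These medians cover the genes with a peak, not all 9. With only peaks at or above the median signal value of their list, 1 of the 9 promoters was open in both replicates, against 30.4% of all genes.

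**Figure D1:**
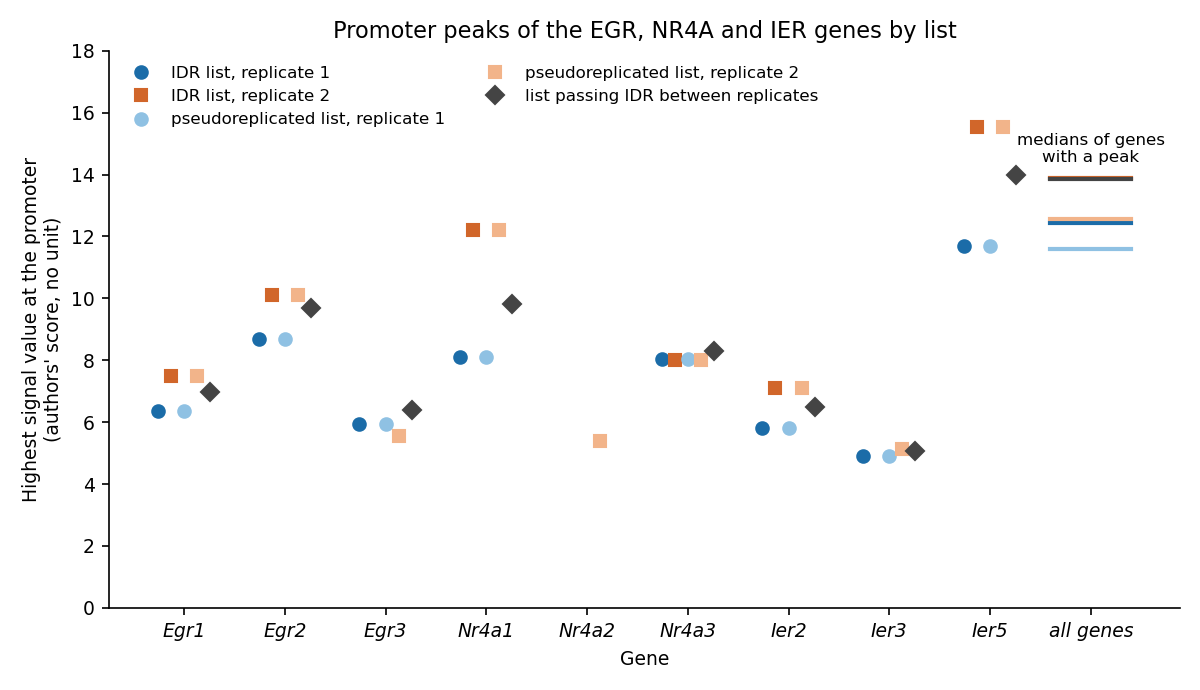
Highest promoter signal value (vertical axis, the authors' score) of each gene in each of 5 peak lists, 1 point per list where a peak exists. Lines at the right are medians over all genes with a peak in the same list, 12.43 and 13.88 for the IDR lists of replicates 1 and 2. Ier5 reaches 11.69 and 15.55, the other genes lie lower, and Nr4a2 has a single point, in the pseudoreplicated list of replicate 2.

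Among the EGR genes, which encode activators that bind a GC-rich site, the open regions of Egr1 and Egr2 lay inside the genes rather than before the first start. Egr1 (chr18:34859823-34864984, plus strand) had 3 separate promoter regions in each replicate, a number that 3.17% of genes with a promoter peak reached in replicate 1 and 1.04% in replicate 2. In replicate 1 they had signal values of 4.759, 6.348 and 4.741, with summits 0.150, 1.31 and 1.83 kb downstream of the first start. In replicate 2 the values were 4.875, 7.505 and 7.460, at 0.159, 1.03 and 1.32 kb. Egr1 has a second annotated start, 1.38 kb downstream of the first. The summit at 1.31 kb in replicate 1 and that at 1.32 kb in replicate 2 lay 75 and 67 bp upstream of it. All 6 summits fell in Egr1 exons: 5 in untranslated sequence and 1, the last of replicate 1, in coding sequence. The third region of each replicate was a different place, since the broad middle region of replicate 1 was listed as 2 in replicate 2. Egr1's highest values, 6.348 and 7.505, exceeded those of 3.66% and 2.5% of genes with a promoter peak.

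Egr2 (chr10:67535475-67542188, plus strand), which encodes a factor best known in myelination and lymphocyte anergy, had its main peak at a cluster of internal start sites 2.39 to 2.46 kb downstream of the first start. That region spanned chr10:67537146-67537945 in replicate 1 with a signal value of 8.679, and chr10:67537236-67537918 in replicate 2 with 10.10. Its summits lay 75 and 88 bp upstream of the nearest annotated start, and the summit of replicate 1 falls inside the printed run with the CArG box. A smaller region in the first intron had values of 4.552 and 8.593, at 0.707 and 0.691 kb. In the ranked list of both replicates together the internal promoter had an IDR of 0.000931 and the intron region 0.0764, so the latter missed the threshold of 0.05. Neither replicate's IDR list had a region over the first start itself.

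Egr3 (chr14:70077203-70082614, plus strand), a paralog that Egr1 and Egr2 share many targets with, had 1 promoter region, upstream of its first start. In replicate 1 its signal value was 5.938, with the summit 0.359 kb upstream. The IDR list of replicate 2 had none, while its pseudoreplicated list had a region at nearly the same place, with a summit 0.374 kb upstream and a value of 5.544. The IDR of the peak between replicates was 0.00607, which passed. Whether Egr3 was open in replicate 2 thus depended on the list.

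**Figure D2:**
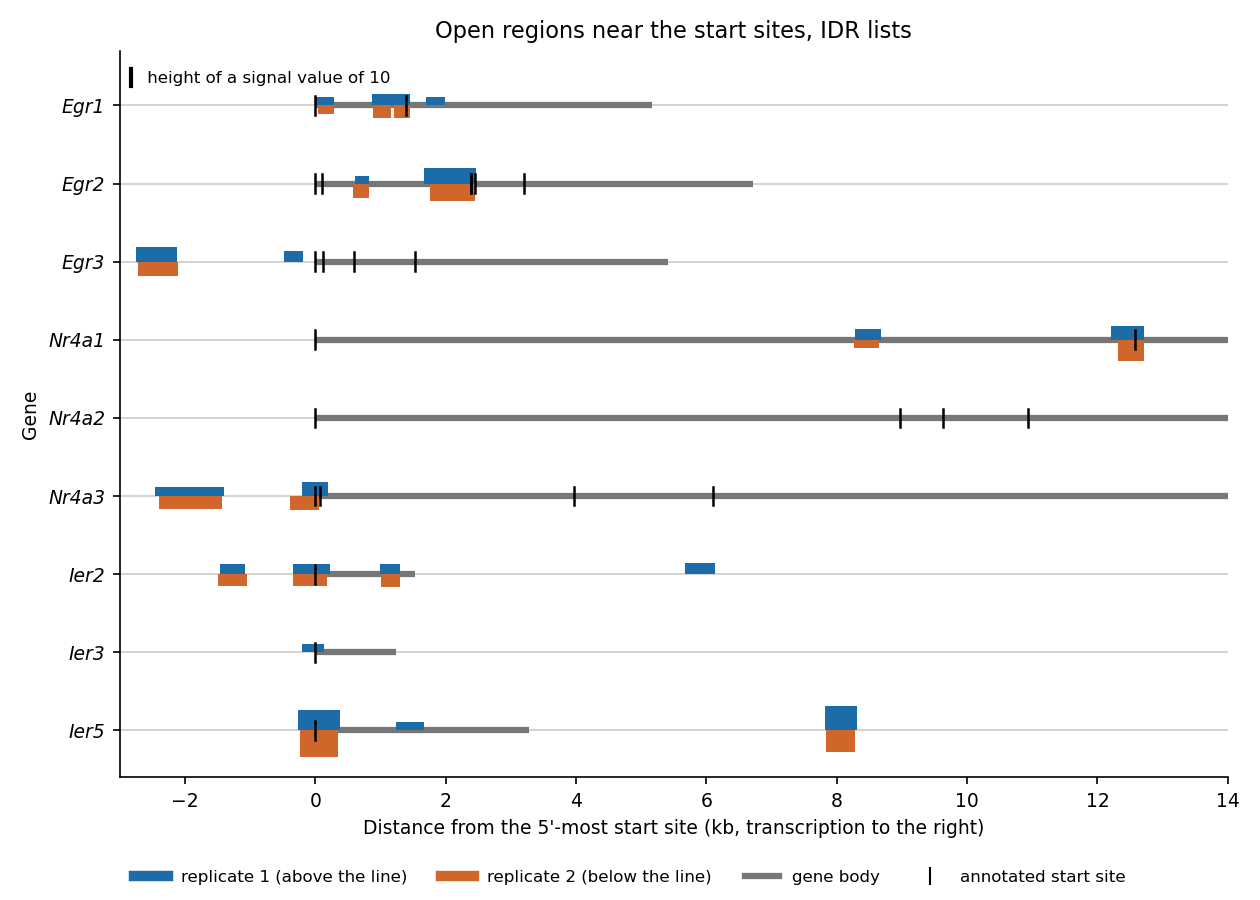
Peak regions of the IDR lists near the start sites of each gene, drawn by distance from the 5'-most start (kb) and with transcription to the right. Box width is the region, box height its signal value, replicate 1 above and replicate 2 below the line. Boxes lie inside Egr1 and Egr2 and at the internal start of Nr4a1 12.58 kb downstream, and none is drawn for Nr4a2.

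The 3 NR4A genes, whose receptors bind DNA alone or, for Nr4a1 and Nr4a2, with retinoid X receptors, differed at their promoters. Nr4a1 (chr15:101254269-101274795, plus strand), the Nur77 receptor, had its peak at an internal start 12.58 kb downstream of the first annotated one, the start that RefSeq gives. Its signal values there were 8.120 in replicate 1 (chr15:101266475-101266983) and 12.20 in replicate 2 (chr15:101266579-101266980), higher than those of 13.71% and 34.86% of genes with a promoter peak. Both summits lay inside the printed window, 40 and 52 bp from the start. The first annotated start had no peak in either IDR list. It had weak ones in the pseudoreplicated lists, and in the list passing IDR between replicates a peak of 4.098 with an IDR of 0.0435.

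Nr4a3 (chr4:48045153-48086447, plus strand), the NOR1 receptor, had the closest values of the 6 genes with a promoter peak in both IDR lists: 8.044 in replicate 1 and 8.013 in replicate 2. By rank within each list these values were less alike, higher than those of 13.09% and 4.21% of genes with a promoter peak. The region of Nr4a3 crossed the first start in both, and both summits, 58 and 67 bp upstream, fall inside the 30 bases printed for it. Its internal starts 3.96 and 6.09 kb downstream had no promoter region in the IDR lists.

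Nr4a2 (chr2:57106830-57124003, minus strand), the Nurr1 receptor known from dopamine neurons, had no promoter region in the IDR list of either replicate or in the list passing IDR between them. The pseudoreplicated list of replicate 2 held 1, of 5.386, at an internal start 8.96 kb downstream of the first, and that of replicate 1 held none. In the ranked list the peak at this internal start had an IDR of 0.217. No list had a region over the upstream promoter whose sequence is shown. A missing peak is not evidence of closed chromatin at an unknown sequencing depth.

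The IER genes are short and each has a single annotated start. Ier2 (chr8:84661331-84662852, minus strand) had a region over that start with values of 5.689 and 6.548, and another, in its 3′ part, of 5.821 and 7.109 with summits 1.15 and 1.14 kb downstream. The latter overlaps the promoter window, but its summit lies beyond 1 kb, so it is also counted as distal below. Ier3 (chr17:35821684-35822923, plus strand) had a highest promoter signal value of 4.903 in replicate 1, the lowest such value of the 8 genes with a peak there and higher than that of 0.397% of all genes with a peak. The pseudoreplicated list of replicate 2 gave it 5.134, and the IDR between replicates was 0.0269.

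Ier5 (chr1:155096361-155099636, minus strand), which encodes a regulator of heat shock factor activity, stood at the other end. Its signal values of 11.69 and 15.55 were higher than those of 43.10% and 64.77% of genes with a promoter peak. The region covered chr1:155099262-155099904 in replicate 1 and chr1:155099290-155099872 in replicate 2, with summits 55 and 72 bp upstream. It was the one gene of the 9 whose peak reached the median signal value of its list in both replicates. No promoter region of the 9 genes in these lists came within 1 kb of a start of another gene.

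Distal regions, with a summit within 50 kb of the first start and over 1 kb from every annotated start, were more numerous around these genes than around most. Replicate 1 had 30 of them, a mean of 3.33 per gene and a median of 3, against a mean of 1.17 and a median of 1 over all protein-coding genes. Replicate 2 had 15, a mean of 1.67 and a median of 2, against 0.433 and 0. Without Ier5, which had the most, the means were 2.75 and 1.38. Over the 8712 genes with an open promoter in both replicates the means were 1.64 and 0.619, and over CpG-rich genes 1.39 and 0.504. A distal region is assigned here by distance alone, and the nearest start of any gene was that of the named gene for 16 of the 30 and 9 of the 15.

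At least 1 distal region was listed in both replicates for 7 of the 9 genes, Egr2 and Nr4a2 being without, against 27.7% of all genes. By replicate the counts were 8 of 9 in replicate 1, against 51.3%, and 7 of 9 in replicate 2, against 27.8%. The pseudoreplicated lists gave 9 of 9 in replicate 1, against 65.5%, and 8 of 9 in replicate 2, against 51.3%. The list passing IDR between replicates gave 8 of 9, against 47.6%. All 15 regions of replicate 2 overlapped a region of replicate 1, and 15 of the 30 of replicate 1 (50%) overlapped one of replicate 2. Over all distal regions the shares were 98.2% and 35%.

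**Figure D3:**
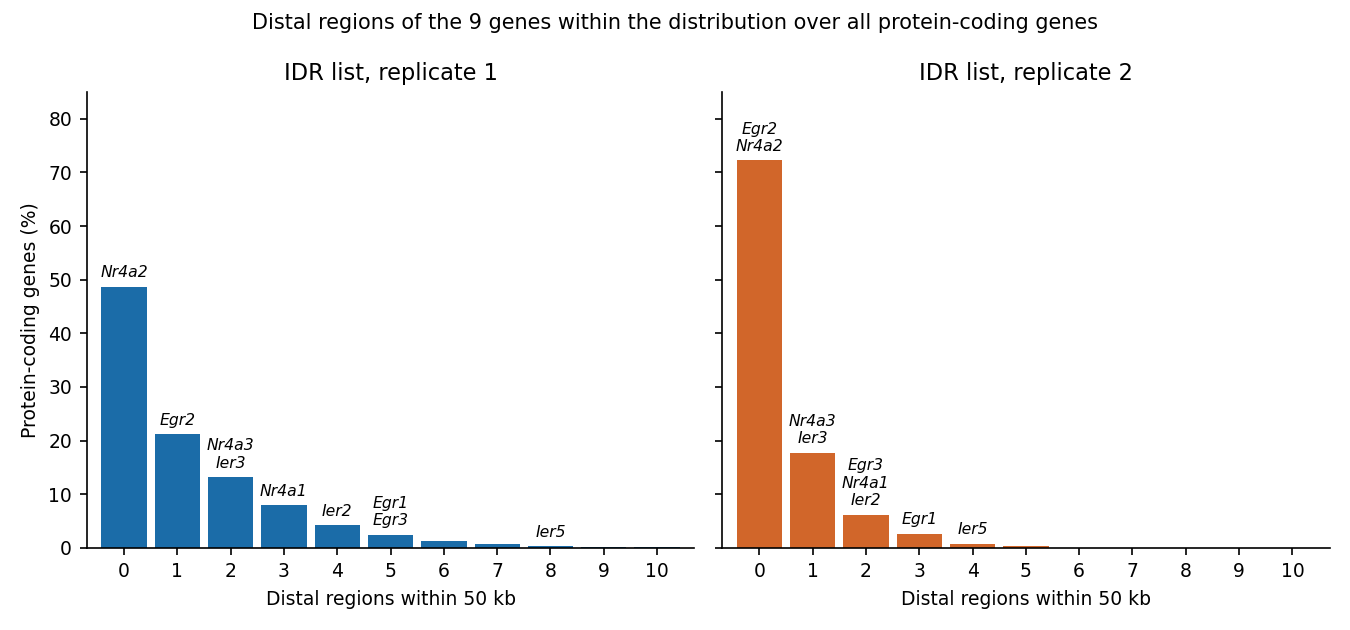
Share of protein-coding genes (vertical axis, %) by number of distal regions within 50 kb (horizontal axis) in the IDR list of each replicate, with the 9 genes written above the bar they belong to. Ier5 stands at 8 and 4 regions, Egr1 at 5 and 3, and Nr4a2 at 0 in both.

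Ier5 had 8 distal regions in replicate 1 and 4 in replicate 2, more than 99.49% and 98.82% of genes. The 4 that repeated were strong. One, 40.65 and 40.63 kb upstream in an intron of Mr1, had signal values of 16.25 and 13.87. Another, 8.14 and 8.15 kb downstream and nearest to Ier5 itself, had 14.12 and 12.34, and its summit sequence with an AP-1 string is printed above. The remaining 2, 39.90 and 49.28 kb downstream in replicate 1, had 11.43 and 12.46 there and 13.01 and 12.91 in replicate 2, and their nearest start was that of Gm29282. Only 2 of the 8 regions in replicate 1 had Ier5 as their nearest gene.

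Nr4a1 had the strongest distal region that repeated with the named gene nearest. Its summit lay 7.86 kb upstream of the first start in replicate 1 (chr15:101246161-101246868) and 7.83 kb upstream in replicate 2 (chr15:101246229-101246685), in intergenic sequence. The signal values were 15.25 and 16.15, against 8.120 and 12.20 at its promoter, and its IDR between replicates was 0.000179. The summit window printed above holds 2 CCAAT and 1 GGGCGG. A weaker region in the Nr4a1 gene body had 6.263 and 4.779. It lay 8.46 and 8.41 kb downstream of the first start, and 4.12 and 4.17 kb upstream of the internal start with the promoter peak. Another region, 13.40 kb upstream of the first start, was in the IDR list of replicate 1 alone with 10.15. The pseudoreplicated list of replicate 2 held it too, with 8.552, and it passed IDR between replicates at 0.00238. Nr4a3 had a broad region of 1054 bp in replicate 1 and 967 bp in replicate 2 just upstream of its promoter, with values of 4.955 and 7.323.

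Nr4a2 had no distal region in the IDR lists. A region inside the gene, 6.25 kb downstream of the first start and in an intron, was in the list passing IDR between replicates with 7.895 and an IDR of 0.0193. The pseudoreplicated lists gave it 7.739 and 5.386. It was the 1 distal region counted for Nr4a2 there.

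Egr1 had 5 distal regions in replicate 1 and 3 in replicate 2, and all were nearest to Egr1. The strongest lay 27.69 kb downstream in both replicates, with 14.47 and 14.18, more than its promoter regions had. The others that repeated lay 9.51 kb upstream (9.080 and 9.859) and 3.41 and 3.43 kb upstream (7.167 and 6.786). Egr3 had 5 and 2. The 2 that repeated, 2.28 and 10.99 kb upstream in replicate 1, had 8.482 and 8.750 there and 8.369 and 10.96 in replicate 2, all above the 5.938 of its promoter. The farther of these 2 lay nearest to Gm33524 and the other to Egr3. The downstream regions of Egr3 lay nearest to Bin3 and were in the IDR list of replicate 1 alone. The pseudoreplicated list of replicate 2 held neither, while both passed IDR between replicates, at 0.0197 and 0.0168. Egr2 had 1, in replicate 1, nearest to 4930563J15Rik.

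Around Ier2 there were 4 distal regions in replicate 1 and 2 in replicate 2. They include the region in its 3′ part and one 1.25 and 1.27 kb upstream with 6.129 and 6.804, whose nearest start was that of Gm26664. The 2 regions of Ier3 in replicate 1 lay 44.51 kb upstream and 48.80 kb downstream, near 4833427F10Rik and Ppp1r18. The latter repeated, with 5.255 and 4.819.

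**Figure D4:**
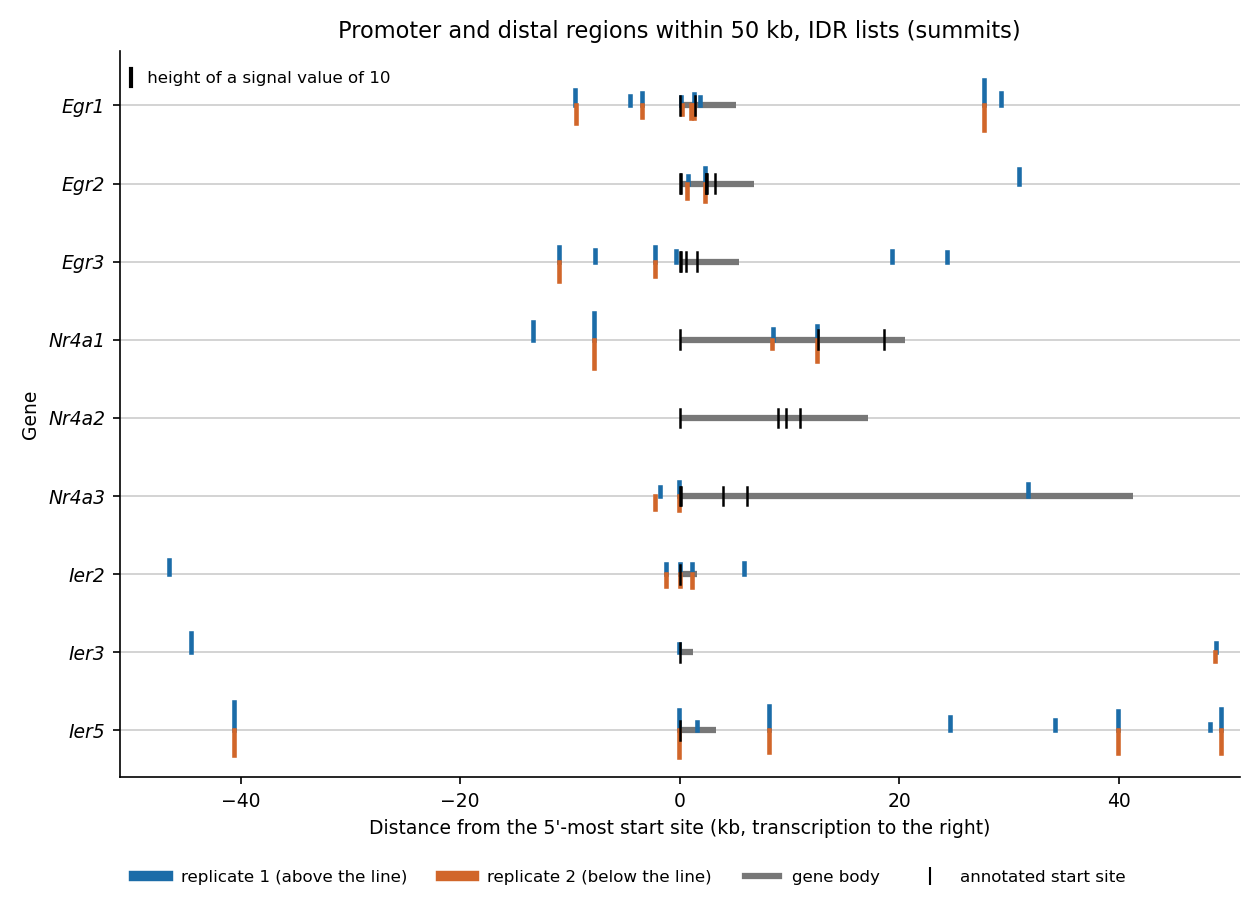
Summits of promoter and distal regions of the IDR lists within 50 kb of each gene, by distance from the 5'-most start (kb, transcription to the right). Line height is the signal value, replicate 1 above and replicate 2 below. The tall pairs are those of Nr4a1 7.86 kb upstream, Egr1 27.69 kb downstream and Ier5 40.65 kb upstream and 8.14, 39.90 and 49.28 kb downstream, and lines present above only are regions of replicate 1 alone.

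In the RefSeq promoter windows TGACG was found for 4 of the 6 genes, Egr2 and the 3 NR4A genes, against 26.9% of 16522 genes. A gene counted here if any of its windows matched. The 6 genes have 10 windows, several of them overlapping ones of Egr2, and all 16522 genes have 20150. Of all windows 24.2% held TGACG and 1.51% a CArG box. Nr4a1, Nr4a2 and Nr4a3 each held 4 copies, a number reached by 0.369% of all genes and by 0.735% of those with a CpG-rich promoter. The full element TGACGTCA was in the windows of none of these 6 genes, against 2.64%. Nr4a2 held its 4 copies in a window with no peak in any list. The CArG box was found for Egr2 alone, against 1.75%, and GGGCGG for all 6, against 51%. A kB box was found for Egr2, Nr4a1 and Ier3 (10.8% of genes). In Egr2 it lay only in the window near the first start, over which no list had a region. CCAAT was found for Egr2, Ier3 and Ier5 (42.1%), the ETS string CCGGAA for Egr2 and Nr4a1 (21.5%) and TATAAA for Nr4a2 (14.3%). The EGR string GCGTGGGCG and the NR4A string AAAGGTCA, which the proteins themselves bind, were in none (1.02% and 1.52% of genes). Strings of factors of myeloid cells were in none of the 6 either: PU.1 (GAGGAAGT, 3.62% of genes), C/EBP (TTGCNNAA, 11.5%) and RUNX (TGTGGT, 17%). The same held for AP-1 (8.15%) and MEF2 (0.575%).

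Around the summits of the promoter regions, in windows reaching 50 bp to either side, the CArG box was in 3 of 11 in replicate 1, those of Egr1, Egr2 and Egr3, and in 3 of 9 in replicate 2, a pair of Egr1 regions and that of Egr2. Of all promoter regions 0.445% and 0.443% held one. No NR4A or IER window did, and none of the 30 and 15 distal windows (0.572% and 0.688% of all). TGACG was in 6 of 11 and 5 of 9 promoter windows (18.6% and 21.1% of all), and in 6 of 30 and 5 of 15 distal ones (8.24% and 10.6%). The full element TGACGTCA was in 1 of 9 promoter windows of replicate 2, that of Ier2 (2.7% of all), and in none of the 11 of replicate 1 (2.25% of all). The AP-1 string was in 4 of 30 and 2 of 15 distal windows (6.69% and 7.66% of all), of which 3 and 2 belong to Ier5. It was in no promoter window of these genes, and in 2.73% and 2.05% of all promoter windows. The C/EBP string was in 3 of 30 and 1 of 15 distal windows (6.39% and 6.86% of all). PU.1 was in 1 of 30 and 1 of 15 (8.29% and 9.36%), and RUNX in 1 of 30 and 1 of 15 (15.4% in both replicates). None of these 3 strings was in a promoter window of these genes. These windows are few and overlap between replicates. A match to a string is a description of the sequence and not a site in use.

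Other genes of the early response were described by lists: 23 regulators, partners and relatives of the 9 genes, and 39 further early-response genes. Of these 62 genes, 47 (75.8%) had a promoter peak in both replicates, against 39.8% of all genes. Of the 45 with a CpG-rich promoter 36 were open, beside the 66.8% of all such genes. Their median highest signal value was 9.06 in replicate 1 and 11.91 in replicate 2, again under the medians of 12.43 and 13.88 over all genes with a peak. Their mean numbers of distal regions were 2.82 and 1.24, beside 3.33 and 1.67 for all 9 genes and 2.75 and 1.38 without Ier5. Over the 39 further early-response genes alone the means were 3.74 and 1.64, close to those of all 9.

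Of 6 SRF, ternary complex and coactivator genes 4 were open in both replicates. Elk1, an ETS partner of SRF, had 21.36 and 17.39, the coactivator Mrtfa had 17.16 and 19.71, and Srf itself had 14.16 and 18.78. Elk4, the fourth, had 7.249 and 8.657, below the 8.679 and 10.10 of Egr2. Elk3 (8.688) and Mrtfb (6.561) were open in the IDR list of replicate 1 alone. The EGR corepressors Nab1 (9.380 and 12.24) and Nab2 (7.078 and 7.759) were open, whereas the paralog Egr4 had no peak in any list.

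Of 6 CREB family and coactivator genes, the regulators of the NR4A promoters, 5 were open, led by the coactivators Crtc2 (15.01 and 17.48) and Crtc1 (10.10 and 14.96) and the repressor-activator Crem (12.29 and 12.40). All 4 MEF2 genes, whose proteins act on Nr4a1 in lymphocytes, were open, with Mef2b at 14.73 and 16.28. Among the retinoid X receptors Rxrb (5.748 and 8.643) was open in both replicates, Rxra (10.19) in the IDR list of replicate 1 alone, and Rxrg in none. Ier5l, the relative of Ier5, was open in 1 of the 2 IDR lists, that of replicate 1, with 7.366.

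Of 39 further early-response genes 31 were open. Dusp5, a phosphatase of ERK, had 14.50 and 17.85, Errfi1, an inhibitor of the EGF receptor, had 13.90 and 14.80, and Tnfaip3, the A20 inhibitor of NF-kB, had 12.39 and 13.88. The chemokine gene Ccl3, the matrix protein gene Ccn1 and the cytokine gene Il1b had no promoter peak in the IDR lists, although Il1b had 6 and 4 distal regions.

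The labelled cell type was checked against promoter peaks of marker genes. In both replicates 39.8% of all protein-coding genes were open, and 18.2% of those without a CpG-rich promoter. No neutrophil or B cell marker has a CpG-rich promoter. Of 10 neutrophil markers 2 (20%), Mmp8 and S100a9, were open in both replicates, near the 18.2%. A further 6 were open in the IDR list of replicate 1 alone, and Lcn2 and Ly6g were in neither. The list passing IDR between replicates held 7 of the 10, against 46.7% of all genes. Of 7 B cell markers 5 (71.4%) were open in both replicates, led by Cr2 (23.66 and 16.97), and the list passing IDR between replicates held all 7. Of 7 monocyte, 7 T cell and 5 platelet markers 1 each was open in both, and of the natural killer, erythroid and eosinophil or basophil markers none. Regions numbered 27709 in the IDR list of replicate 1 and 14548 in that of replicate 2. How far other blood cells or the difference between replicates bear on the peaks of the 9 genes was not tested.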

How the data were processed

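ATAC-seq peak lists of 2 replicates of mouse blood neutrophils were used, on mm10 (GRCm38) per the labels. For the aligner, peak caller and read shift, names and settings were not given in the sources used here, and without read counts the depth is unknown. The deposited lists give a signal value, a score that the authors' processing assigned to each peak and that is not defined there. The authors' −log10 p of each peak and, in the ranked list, their −log10 IDR were also read, per the file headers. Per the file headers each replicate has an IDR thresholded list, used as the main one, and a pseudoreplicated list.

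Overlapping peaks were merged into regions that keep the highest score and its summit. Start sites came from GENCODE release M21, and coordinates count from 1. Promoter overlap needed at least 1 bp. CpG content was taken from 500 bp on either side of the first start. Strings were searched on both strands in RefSeq windows, in place of windows at the first annotated start that had been planned, and within 50 bp of summits. Overlapping strings were each counted, so TGACGTCA also holds TGACG on both strands. The 9 genes, the gene lists and the strings were chosen with earlier results of these data known. From each other list the text names the 3 genes with the highest mean promoter score among those open. It also names up to 3 without a peak in either replicate's IDR list, and for lists of at most 6 genes also others. No test was run, since there was 1 group. The lookups were tested on simulated peaks. Alternatives were other lists, stronger peaks, other widths, overlaps and start sites, and leaving out each replicate. Tools were Python 3.11.15 and NumPy 2.4.6.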

Additional observations from a re-analysis of the deposited data

How the results depend on the processing

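The count of open promoters was 6 of 9 as reported. When peaks at or above the median signal value of their list were required it was 1, Ier5 (11.1%), below the 30.4% of all genes (6670 of 21911), where the reported share lay above it. The other early-response genes then gave 24 of 62 (38.7%). The count for the 9 genes was 5 (55.6%) with the 5′-most start site alone, since Nr4a1 is open at an internal start. The same setting gave 36.5% of all genes (8003 of 21911) and 42 of 62 other early-response genes (67.7%). Leaving out each replicate in turn gave 6 to 8 for the 9 genes, 8827 to 10317 for all genes and 47 to 55 for the other early-response genes. The mean of 2.5 distal regions per gene over both replicates was 4.67 with the pseudoreplicated lists, 3.78 with the list passing IDR between replicates, 0.889 with the stronger peaks, 1.44 within 20 kb and 4.56 within 100 kb. For all protein-coding genes the 0.801 became 1.69 with the pseudoreplicated lists, 0.381 with the stronger peaks, 0.324 within 20 kb and 1.55 within 100 kb. Leaving out a replicate gave 1.67 to 3.33 for the 9 and 0.433 to 1.17 for all genes. The ratio of the means was 3.12 as reported and ran from 2.33 with the stronger peaks to 4.46 within 20 kb over the alternatives run. Egr2's mean promoter signal value of 9.39 became 6.57 with the 5′-most start alone. No paired analysis was possible because there was 1 group and no test.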
